A study of Mus musculus with 34 samples.

Results

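Translation initiation factor genes were taken as all rows of the expression table whose symbol starts with *Eif1* to *Eif6*, without the Y-linked copy and pseudogenes, whose mean over the libraries reached an FPKM of 0.5. Of the 55 rows with such a symbol, before these exclusions, 52 were members, among 12305 genes tested and 22040 genes in the table. They divide by factor into 5 eIF1 and eIF1A genes, 3 eIF2 subunit genes, *Eif2a* and *Eif2d*, 5 eIF2B genes, 4 eIF2 kinase genes, 14 eIF3 genes, 14 eIF4 genes, 4 genes of eIF5, eIF5A and eIF5B, and *Eif6*. The rule used the gene name and the mean level over both groups, and not the comparison between them. *Eif4ebp3* lay just outside the limit at a mean FPKM of 0.492, *Eif4e1b* was listed at 0 in all libraries, and *Eif3j2* was the lowest member at 1.58.

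The RNA came from limb buds of E11.5 mouse embryos, 3 WT and 3 CKO libraries. CKO embryos are *Prrx1-Cre;Hnrnpk* fl/fl, and the WT controls are given as wild type, with no further alleles named in the sources used here. *Hnrnpk* encodes an RNA-binding protein of the hnRNP family. *Prrx1-Cre* is active in limb bud mesenchyme, and incompletely in the hindlimb, so ectoderm, blood and vessel cells of the same bud keep the gene. Embryos of both sexes were used without being told apart, and the number of embryos behind a library is not given in the sources used here. The replicates are described as biological, but not by litter or day.

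Translation initiation brings the ribosome, the initiator tRNA and the start codon together. eIF2 carries the initiator tRNA to the small ribosomal subunit and is recharged by its exchange factor eIF2B, and 4 kinases slow this step under stress by phosphorylating eIF2. eIF3 is the scaffold on the small subunit, eIF4E binds the mRNA cap, eIF4G bridges it to the ribosome, and eIF4A unwinds the leader with help from eIF4B and eIF4H. Proliferating embryonic cells need a high rate of protein synthesis, and most of these genes are expressed in every cell.

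The deposited FPKM count fragments scaled to exon length and library size, so they allow levels of different genes to be set side by side within a library. At least in CKO replicates 2 and 3 they carry a further scaling that is not described in the sources used here. Fits on reads recovered without it are given below, and its part in the differences was not otherwise tested. Reads on listed genes numbered 17143034 to 24627737 per library. *Hnrnpk* had an FPKM of 193, 195 and 185 in WT replicates 1, 2 and 3 and of 127, 142 and 135 in CKO replicates 1, 2 and 3, a log2 fold change of -0.50 (SE, standard error, 0.13, limma adjusted *p* = 0.334) with no overlap between groups. Only some of its exons are floxed, whereas the FPKM cover the whole gene and all cells of the bud. The study reports efficient loss of the protein by western blot and of the mRNA by qPCR. All 8 limb mesenchyme markers were detected, with a summed FPKM of 332 to 343 in WT and 279 to 317 in CKO. The libraries differed in blood. The summed FPKM of 11 erythroid markers was 37800 to 64000 in WT, and 30900, 143000 and 85600 in CKO replicates 1, 2 and 3. Summed markers were 9.78 to 25.1 in WT and 20.3 to 28.7 in CKO for muscle, 41.4 to 59.1 and 44.0 to 63.0 for ectoderm, 18.2 to 26.5 and 13.0 to 21.8 for endothelium, 1.81 to 4.27 and 3.82 to 4.56 for neural crest, and 12.0 to 18.5 and 13.3 to 22.3 for macrophages. No marker of any list was at 0 in all libraries. In bulk samples such as these, fewer cells of a type and less RNA per cell cannot be told apart.

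RefSeq start sites (GRCm38.p6) gave a promoter window of 250 bases before to 50 bases after the start for 42 of the 52 members. The 250 upstream bases are shown for *Eif4a1*, *Eif2d*, *Eif4b* and *Eif2s3x*, since *Eif4a1* and *Eif2s3x* had the highest log2 fold change of the eIF4 and eIF2 genes and *Eif2d* and *Eif4b* had CKO values all above WT. Capitals mark the motifs searched, on both strands: CCGGAAGT (ETS), CACGTG (E-box), TGACGT (part of a cAMP response element), CCAAT and GGGCGG (GC box). On the other strand GGGCGG reads CCGCCC and TGACGT reads ACGTCA, and no motif overlaps another in the bases shown. The windows lie at chr11:69672424-69672673 (minus strand), chr1:131152957-131153206 (plus), chr15:102073523-102073772 (plus) and chrX:94212652-94212901 (minus). They are upstream of the RefSeq start, which differs from the GENCODE start in some genes. Most of the *Eif2s3x* window, with its GC box, lies inside the GENCODE gene, whose start is at 94212862. The *Eif2d* window runs past the GENCODE start at 131153181.
*Eif4a1*: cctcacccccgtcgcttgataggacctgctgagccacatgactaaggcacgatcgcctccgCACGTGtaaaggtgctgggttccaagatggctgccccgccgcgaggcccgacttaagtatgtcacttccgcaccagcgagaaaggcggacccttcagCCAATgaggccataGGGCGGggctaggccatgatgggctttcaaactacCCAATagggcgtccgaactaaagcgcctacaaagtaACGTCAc
*Eif2d*: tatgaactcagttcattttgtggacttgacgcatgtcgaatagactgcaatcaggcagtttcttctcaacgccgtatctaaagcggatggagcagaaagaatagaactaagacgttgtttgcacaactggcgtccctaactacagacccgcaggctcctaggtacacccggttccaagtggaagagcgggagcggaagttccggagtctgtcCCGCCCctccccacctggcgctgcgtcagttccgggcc
*Eif4b*: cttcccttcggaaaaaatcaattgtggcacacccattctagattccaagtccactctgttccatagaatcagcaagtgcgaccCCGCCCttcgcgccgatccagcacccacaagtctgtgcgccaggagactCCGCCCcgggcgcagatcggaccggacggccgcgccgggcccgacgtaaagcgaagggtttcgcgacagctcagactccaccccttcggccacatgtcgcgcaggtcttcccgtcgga
*Eif2s3x*: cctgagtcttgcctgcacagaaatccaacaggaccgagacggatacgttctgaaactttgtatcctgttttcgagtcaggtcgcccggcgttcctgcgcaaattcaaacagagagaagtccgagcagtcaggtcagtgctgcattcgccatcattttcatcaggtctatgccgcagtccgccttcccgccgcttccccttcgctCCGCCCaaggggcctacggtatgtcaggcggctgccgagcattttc

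The upstream bases shown for *Eif4a1* held an E-box, a pair of CCAAT boxes, a GC box and a match to part of the cAMP response element, whereas those of the other 3 genes held GC boxes alone. Over the 300 bases of each window, GGGCGG was found in 31 of the 42 member promoters (73.8%) and in 35.9% of all 27025 promoters. CCGGAAGT was found in 7 (16.7%, against 4.0% of all promoters), CACGTG in 8 (19.0%, against 7.24%) and TGACGT in 6 (14.3%, against 7.64%). CCAAT was found in 13 (31.0%), against 37.9% of all promoters. These are matches of letters and not shown binding sites. The set of all promoters includes genes not expressed in these libraries. It was not matched to the members for level or base content, so the higher shares are not shown to be particular to them.

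CKO was compared with WT by limma on log2(FPKM + 0.1), on which scale a log2 fold change understates the change of low genes. After adjustment over all genes, no member passed a *p* value of 0.05 in either direction, where 0.0569% of the tested genes were called higher and 0.00813% lower. Limma voom on reads recovered from the FPKM, which kept 44 members, called 0 as well. The share of all genes called by voom is not given here. The members' median log2 fold change in that fit was 0.144, against 0.016 for all genes in it. In the fit on FPKM, 3 members were higher with an unadjusted *p* value under 0.05 (5.77%) and 1 lower (1.92%), against 2.84% and 5.46% of the tested genes. The direction leaned one way in small steps. The log2 fold change was above 0 for 46 of the 52 members (88.5%), compared with 50.9% of the tested genes, and its median was 0.14 against 0.01 for all tested genes. The members' median level was 38.9 FPKM against 7.07 for all tested genes, and no set matched in level was compared. With quantile normalization the log2 fold change was above 0 for 36 members, with a median of 0.06 against 0.00 for all tested genes. It ran from -0.64 for *Eif4e3* to 0.55 for *Eif3j2*, and no member differed by more than 2-fold. The CKO values were all above the WT values for 4 members (7.69%, against 5.63% of the tested genes), *Eif2d*, *Eif2b5*, *Eif4b* and *Eif5a2*, and all below for 1 (1.92%, against 8.86%), *Eif4e3*.

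**Figure D1:**
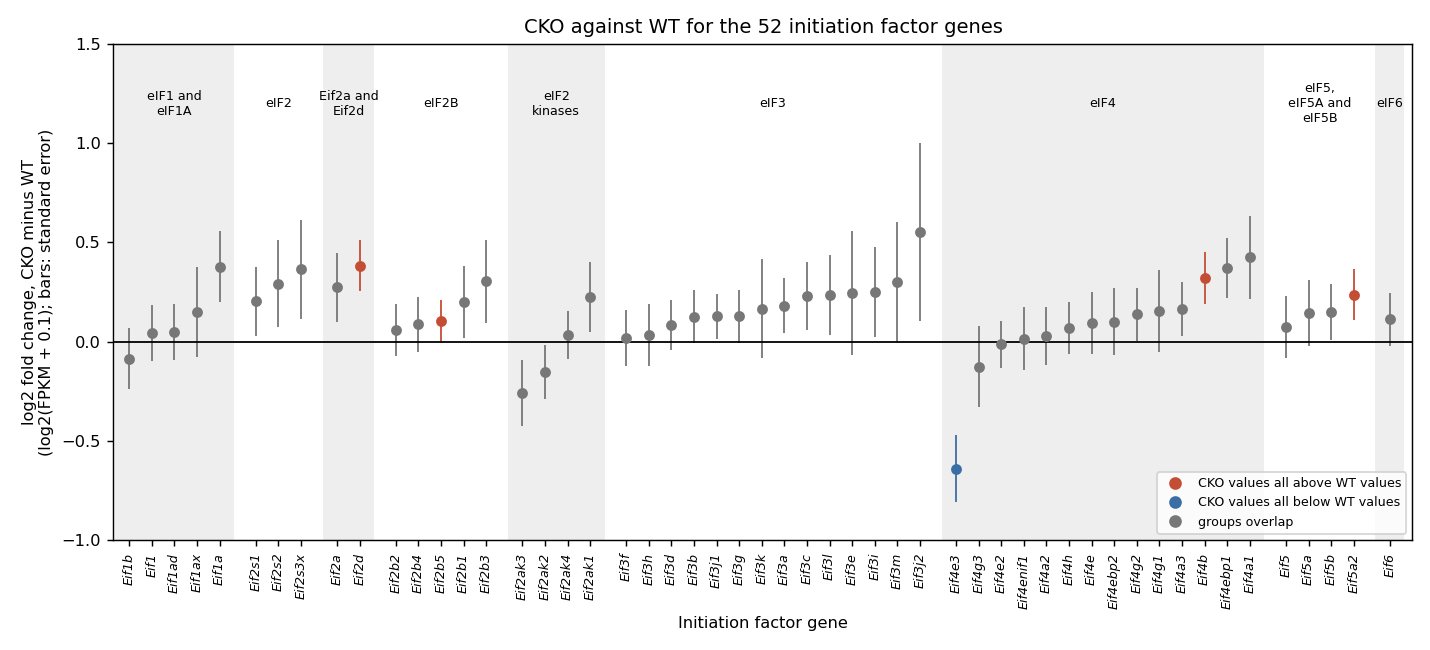
Log2 fold change of CKO against WT for the 52 initiation factor genes (vertical axis, log2(FPKM + 0.1) scale), grouped by factor and ordered within each, with bars of 1 standard error from limma on 3 libraries per group. The 14 eIF3 genes all lie above 0 on this scaling (11 of 14 with quantile normalization or without globin genes), and *Eif4e3* at -0.64 is the lowest point.

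The excess of higher members was uneven between the libraries. Between the libraries numbered 1, 23 of 52 members were higher in CKO, with a median difference of -0.01 on the log2 scale. Between those numbered 2 the count was 35, with a median of 0.13, and between those numbered 3 it was 45, with a median of 0.26. The medians over all tested genes were -0.01, 0.00 and 0.00. Members that were higher within all 3 numbers were 10 (19.2%, against 18.2% of the tested genes), and 2 were lower within all 3 (3.85%, against 21.3%), *Eif4e3* and *Eif2ak3*. With replicates 2 and 3 alone, limma was fitted on 2 libraries per group. It called 13 members higher at an adjusted *p* value under 0.05 (25.0%, against 7.05% of the tested genes) and 1 lower (1.92%, against 8.00%). This fit leaves out CKO replicate 1, the lowest of the 6 values in 17 members, and was chosen with earlier results known. Its calls are thus a description and not separate support. Leaving out any 1 library gave 0 members past the adjusted threshold, and the share of all tested genes is not given for these fits. With all 6 libraries that share was 0.0569% higher and 0.00813% lower, so a count of 0 says little about the members. Without CKO replicate 1 the members' median was 0.185, against -0.002 for all tested genes, and 39 of 52 were above 0. CKO replicate 1 had the least globin, 11.7% of the summed FPKM, and CKO replicate 2 the most, 32.4%. In 14 members (26.9%, against 12.4% of the tested genes) the lowest of the 6 values was in CKO replicate 1 and the highest in CKO replicate 2. The part of blood RNA in these differences was not tested. When the libraries were rescaled without globin genes, which moved the median of all genes to -0.10, the members' median was 0.03 and 31 were above 0.

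**Figure D2:**
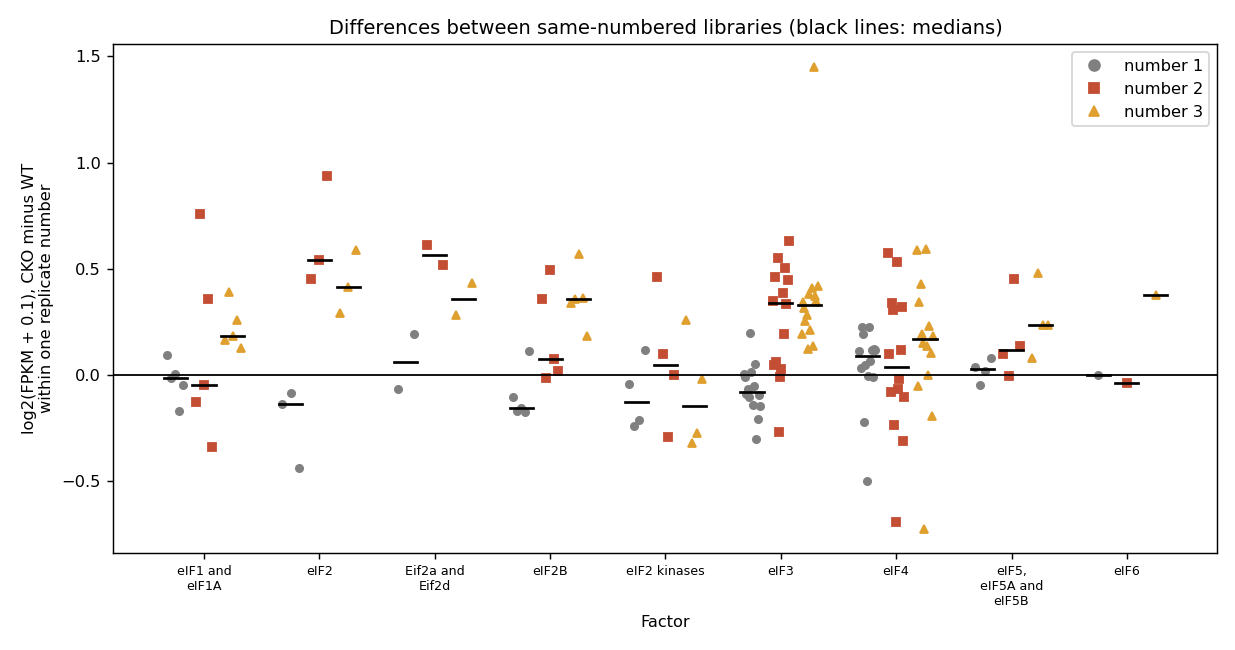
Difference in log2(FPKM + 0.1) between the CKO and the WT library of the same replicate number (vertical axis) for each initiation factor gene, by factor, with black lines at the medians. For eIF3 the medians lie at -0.08, 0.34 and 0.33 for numbers 1, 2 and 3, and for eIF2 at -0.14, 0.54 and 0.42.

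The eIF2 subunits carry the initiator tRNA. All 3 had a higher mean in CKO, with a median log2 fold change of 0.29, and none passed the test. *Eif2s1* (chromosome 12 of GRCm38, 78861819 to 78887010), the alpha subunit that the stress kinases phosphorylate, had an FPKM of 34.6, 35.8 and 35.7 in WT and 31.4, 49.0 and 43.7 in CKO. The WT values were nearly level, while CKO replicate 1 lay below all of them and replicates 2 and 3 above. Its log2 fold change was 0.20 (SE 0.17, adjusted *p* = 0.834). *Eif2s2* (chromosome 2, 154871410 to 154892935), the beta subunit, had 33.7, 39.9 and 36.5 in WT and 31.8, 58.2 and 48.7 in CKO. The same CKO library was the low one, and the groups overlapped (log2 fold change 0.29, SE 0.22, adjusted *p* = 0.803).

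*Eif2s3x* (X chromosome, 94188707 to 94212862), the X-linked gene of the tRNA-binding gamma subunit, had 54.5, 40.4 and 39.8 in WT and 40.3, 77.6 and 59.9 in CKO. Unlike in the other subunits, WT replicate 1 was well above the other WT libraries. CKO minus WT was 0.36 (SE 0.25, adjusted *p* = 0.768). Its Y-linked copy, *Eif2s3y*, had 5.43, 6.90 and 9.59 in WT and 9.02, 3.31 and 2.07 in CKO. The summed FPKM of 4 Y-linked genes was 17.1, 21.0 and 27.0 in WT and 33.2, 13.0 and 8.57 in CKO, so Y-linked RNA was highest in CKO replicate 1, where *Eif2s3x* was the lowest CKO value, and the part of embryo sex was not tested. With replicates 2 and 3 alone, 2 libraries per group, *Eif2s1*, *Eif2s2* and *Eif2s3x* had log2 fold changes of 0.37, 0.48 and 0.76. In that limma fit, which leaves out the low CKO replicate 1, the adjusted *p* values were 0.0478, 0.0129 and 1.98e-04. The eIF2 median was 0.10 without CKO replicate 2 and 0.54 without CKO replicate 1. It was 0.185 when rescaled without globin genes, against -0.10 for all tested genes.

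*Eif2d* and *Eif2a* encode separate proteins that can deliver tRNA to the ribosome outside the eIF2 complex. *Eif2d* (chromosome 1, 131153181 to 131187658) had an FPKM of 6.63, 6.58 and 5.99 in WT (6.40 ± 0.352, SD, n = 3) and 7.60, 9.48 and 8.13 in CKO (8.40 ± 0.968, SD, n = 3). Every CKO value was above every WT value, and the log2 fold change was 0.38 (SE 0.13, unadjusted *p* = 0.0177, adjusted *p* = 0.480). Blocking by replicate number gave *Eif2d* an adjusted *p* value of 0.0940 by limma on FPKM and 0.0402 by limma voom on recovered reads, and with replicates 2 and 3 alone it was 0.0121. *Eif2a* was level at 17.3 to 17.7 in WT and had 16.8, 27.1 and 21.1 in CKO (0.27 on the log2 scale, SE 0.17).

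eIF2B exchanges GDP for GTP on eIF2. Its 5 subunit genes were all above 0, with a median log2 fold change of 0.11 and no adjusted or unadjusted call. With quantile normalization all 5 stayed above 0, with a median of 0.06. When rescaled without globin genes 2 of 5 did, with a median of -0.002 against -0.10 for all tested genes. Between the libraries numbered 1, only 1 of 5 was higher in CKO. *Eif2b5*, the catalytic epsilon subunit, had 31.1, 32.5 and 32.0 in WT and 33.6, 32.9 and 36.4 in CKO, a separation of groups by a small step (log2 fold change 0.11, SE 0.11). *Eif2b3*, the gamma subunit, had 5.38, 5.88 and 4.88 in WT and 4.81, 8.34 and 7.29 in CKO, with a log2 fold change of 0.30 (SE 0.21). *Eif2b1*, *Eif2b2* and *Eif2b4* had log2 fold changes of 0.20, 0.06 and 0.09.

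The 4 eIF2 kinases went in both directions, with a median log2 fold change of -0.06. *Eif2ak1* encodes HRI, the heme-regulated kinase of red cell precursors, and had 21.4, 24.1 and 23.0 in WT and 20.7, 33.2 and 27.4 in CKO (log2 fold change 0.23, SE 0.18, adjusted *p* = 0.811). Its order over the CKO libraries is that of the erythroid markers, but it shares this with many other members. It is among the 14 members with the lowest value in CKO replicate 1 and the highest in CKO replicate 2. The part of blood RNA in it was not tested. *Eif2ak2*, which encodes PKR, a sensor of double-stranded RNA, had 5.36, 4.92 and 5.04 in WT and 4.52, 5.28 and 4.02 in CKO (-0.15, SE 0.14, adjusted *p* = 0.837). *Eif2ak3* encodes PERK, the kinase of the endoplasmic reticulum. It had 4.55, 3.52 and 4.06 in WT and 3.92, 2.85 and 3.35 in CKO, so the groups overlapped, although CKO was the lower in each replicate number (-0.26, SE 0.17, adjusted *p* = 0.739). *Eif2ak4*, which encodes GCN2, a sensor of uncharged tRNA, had 5.86, 5.35 and 5.91 in WT and 6.37, 5.34 and 5.84 in CKO (0.03, SE 0.12, adjusted *p* = 0.964).

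eIF3 is the largest factor, and all 14 of its genes had a log2 fold change above 0, with a median of 0.17, an adjusted call in none and an unadjusted one in none. With quantile normalization 11 of 14 were above 0, with a median of 0.07, and when rescaled without globin genes 11 of 14, with a median of 0.07 against -0.10 for all tested genes. By number the counts of higher genes were 4, 12 and 14 of 14, with medians of -0.08, 0.34 and 0.33. Leaving out CKO replicate 2 or 3 gave a median of 0.09, and leaving out CKO replicate 1 gave 0.30. *Eif3h* had the highest mean FPKM of the group with 153, 174 and 154 in WT and 139, 178 and 178 in CKO. The log2 fold change was 0.03 (SE 0.16, adjusted *p* = 0.972), and it was -0.07 with quantile normalization and without globin genes. Its mean was 8.16 times that of *Eif3j1*, the loosely bound j subunit. *Eif3l*, *Eif3a* and *Eif3c* followed with means of 134 to 161, 136 to 154 and 123 to 146 from WT to CKO, and the values of each overlapped those of the next gene in this order.

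*Eif3m* had 58.4, 79.9 and 72.6 in WT and 52.8, 124 and 97.1 in CKO, the largest log2 fold change of the group after *Eif3j2* (0.30, SE 0.30). *Eif3e* had 39.2, 58.6 and 54.3 in WT and 36.5, 86.0 and 66.2 in CKO (0.24, SE 0.31). In both genes replicate 1 was the lowest library of its group. With replicates 2 and 3 alone, *Eif3m*, *Eif3e*, *Eif3i* and *Eif3j2* were called higher in CKO (adjusted *p* = 0.0125, 0.0416, 0.0456 and 0.0132). *Eif3j2*, the least abundant member, had 1.40, 0.790 and 1.29 in WT and 1.11, 1.16 and 3.70 in CKO (0.55, SE 0.45, adjusted *p* = 0.821). One CKO library stood above the other five, and the gene is a close copy of *Eif3j1* with 45 to 210 reads, so its value is uncertain. The core subunits *Eif3a*, *Eif3b* and *Eif3c* had log2 fold changes of 0.18, 0.13 and 0.23, and the other subunits lay between 0.02 for *Eif3f* and 0.25 for *Eif3i*.

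**Figure D3:**
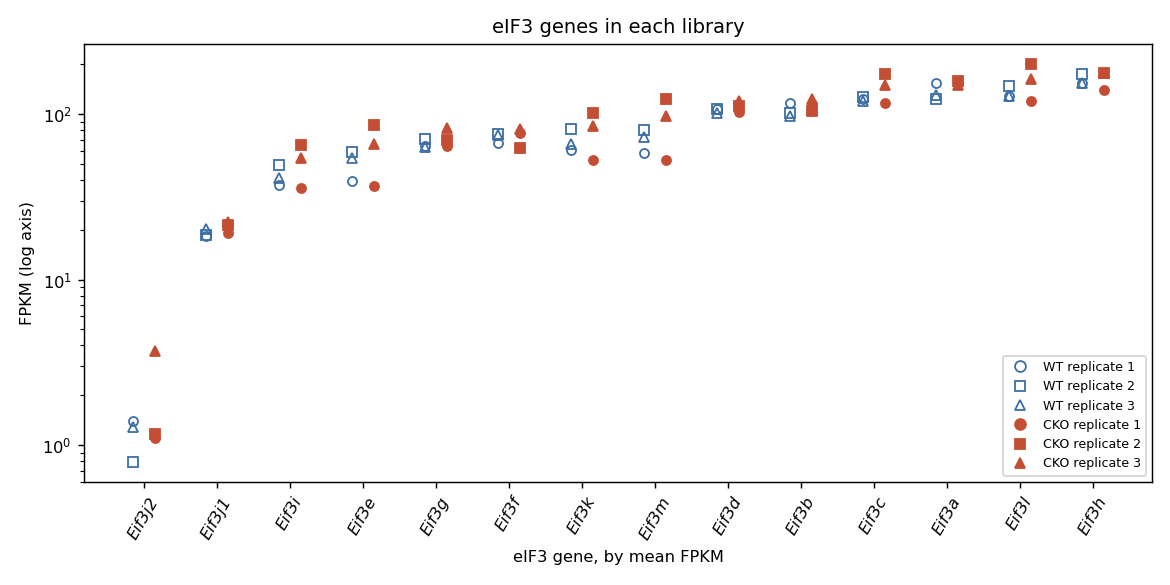
FPKM of the 14 eIF3 genes (vertical axis, log scale) in each of the 3 WT (open) and 3 CKO (filled) libraries, ordered by mean FPKM, with marker shape for the replicate number. In *Eif3m*, *Eif3e*, *Eif3k* and *Eif3l* CKO replicate 2 is the highest point and CKO replicate 1 the lowest.

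Among the eIF4 genes, 11 of 14 were above 0, with a median log2 fold change of 0.10 and medians by number of 0.09, 0.04 and 0.17. The median was 0.02 with quantile normalization (8 of 14 above 0), 0.007 without CKO replicate 1 and 0.056 without WT replicate 2. When rescaled without globin genes it was -0.01, against -0.10 for all tested genes. *Eif4e3* (chromosome 6, 99625135 to 99666771), a distant relative of the cap-binding protein, had an FPKM of 4.48, 6.41 and 5.94 in WT (5.61 ± 1.01, SD, n = 3) and 3.14, 3.92 and 3.55 in CKO (3.54 ± 0.392, SD, n = 3). All CKO values were below all WT values, and the log2 fold change was -0.64 (SE 0.17, unadjusted *p* = 0.00584, adjusted *p* = 0.358). With the replicate number as a block it passed the threshold (adjusted *p* = 0.0160), as 1.68% of the tested genes did in this direction, and it was the only member to do so, with 0 members higher against 1.13% of the tested genes. Its values rest on 143 to 386 reads, and 373 of its 2515 exon bases are shared with *Gm20696* on the same strand.

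The canonical cap-binding gene *Eif4e* had 33.8, 34.6 and 32.4 in WT and 29.0, 42.8 and 37.0 in CKO, with groups that overlapped (log2 fold change 0.09, SE 0.16, adjusted *p* = 0.915). *Eif4e2*, which encodes a cap-binding repressor, had 11.1 to 12.5 in WT and 10.6 to 12.3 in CKO. The mean WT levels of *Eif4e* and *Eif4e3* were 33.6 and 5.61 FPKM. *Eif4enif1*, the nuclear transporter of eIF4E, had 18.7 to 24.3 in WT and 18.5 to 25.4 in CKO.

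The helicase genes and their helpers *Eif4b* and *Eif4h* were all 5 above 0, with a median log2 fold change of 0.16. The median was 0.07 with quantile normalization. It was 0.06 when rescaled without globin genes, against -0.10 for all tested genes. *Eif4h* and *Eif4a2* fell below 0 in both. *Eif4a1* (chromosome 11, 69666936 to 69672423), the main helicase, had 278, 324 and 287 in WT (296 ± 24.6, SD, n = 3) and 301, 483 and 431 in CKO (405 ± 93.6, SD, n = 3). CKO replicates 2 and 3 were above every WT library and CKO replicate 1 was among them. The log2 fold change was 0.42 (SE 0.21, adjusted *p* = 0.657), and 0.58 with replicates 2 and 3 alone (adjusted *p* = 0.0220). *Eif4a2*, its close paralog, was level with 86.3, 69.6 and 72.7 in WT and 88.3, 74.5 and 70.2 in CKO (0.03, SE 0.15, adjusted *p* = 0.975). The ratio of *Eif4a1* to *Eif4a2* FPKM was 3.23, 4.66 and 3.94 in WT and 3.41, 6.48 and 6.13 in CKO, so that 2 of 3 CKO libraries had a higher ratio than every WT library. Exons of *Eif4a1* and *Eif4a2* share 287 and 617 bases with other annotated genes on the same strand, and reads of these similar paralogs may be split between them, so both values are uncertain. *Eif4a3*, whose product belongs to the exon junction complex, had 65.3, 63.8 and 61.1 in WT and 76.3, 60.4 and 77.6 in CKO (0.16, SE 0.14, adjusted *p* = 0.831).

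*Eif4b* (chromosome 15, 102073773 to 102097173), which stimulates eIF4A, had 156, 140 and 133 in WT (143 ± 11.9, SD, n = 3) and 178, 177 and 179 in CKO (178 ± 0.949, SD, n = 3). The CKO libraries were nearly identical and all above WT, and the log2 fold change was 0.32 (SE 0.13, unadjusted *p* = 0.0411, adjusted *p* = 0.564). *Eif4h*, a related helper, had a log2 fold change of 0.07.

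None of the 3 scaffold genes passed the test. *Eif4g1* had 146, 101 and 104 in WT and 159, 109 and 122 in CKO (log2 fold change 0.15, SE 0.20, adjusted *p* = 0.888). In both groups replicate 1 was the highest library. *Eif4g2*, which encodes a relative that lacks the cap-binding arm, had 184, 163 and 171 in WT and 183, 203 and 184 in CKO (0.14, SE 0.13, adjusted *p* = 0.855). *Eif4g3* had 22.8, 17.9 and 20.1 in WT and 24.8, 14.5 and 17.6 in CKO (-0.13, SE 0.20, adjusted *p* = 0.909).

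The 4E-binding proteins block eIF4E when they are not phosphorylated, and *Eif4ebp1* is also a known target of the stress factor ATF4. *Eif4ebp1* (chromosome 8, 27260329 to 27276674) had 11.9, 11.1 and 9.48 in WT (10.8 ± 1.25, SD, n = 3) and 11.9, 16.0 and 14.3 in CKO (14.1 ± 2.06, SD, n = 3). The groups overlapped at replicate 1, by less than the rounding of these values. The log2 fold change was 0.37 (SE 0.15, unadjusted *p* = 0.0399, adjusted *p* = 0.564), and 0.56 with replicates 2 and 3 alone (adjusted *p* = 0.00274). *Eif4ebp2*, the more abundant gene, had 40.2, 32.9 and 35.4 in WT and 47.1, 31.4 and 39.0 in CKO (0.10, SE 0.17, adjusted *p* = 0.915).

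**Figure D4:**
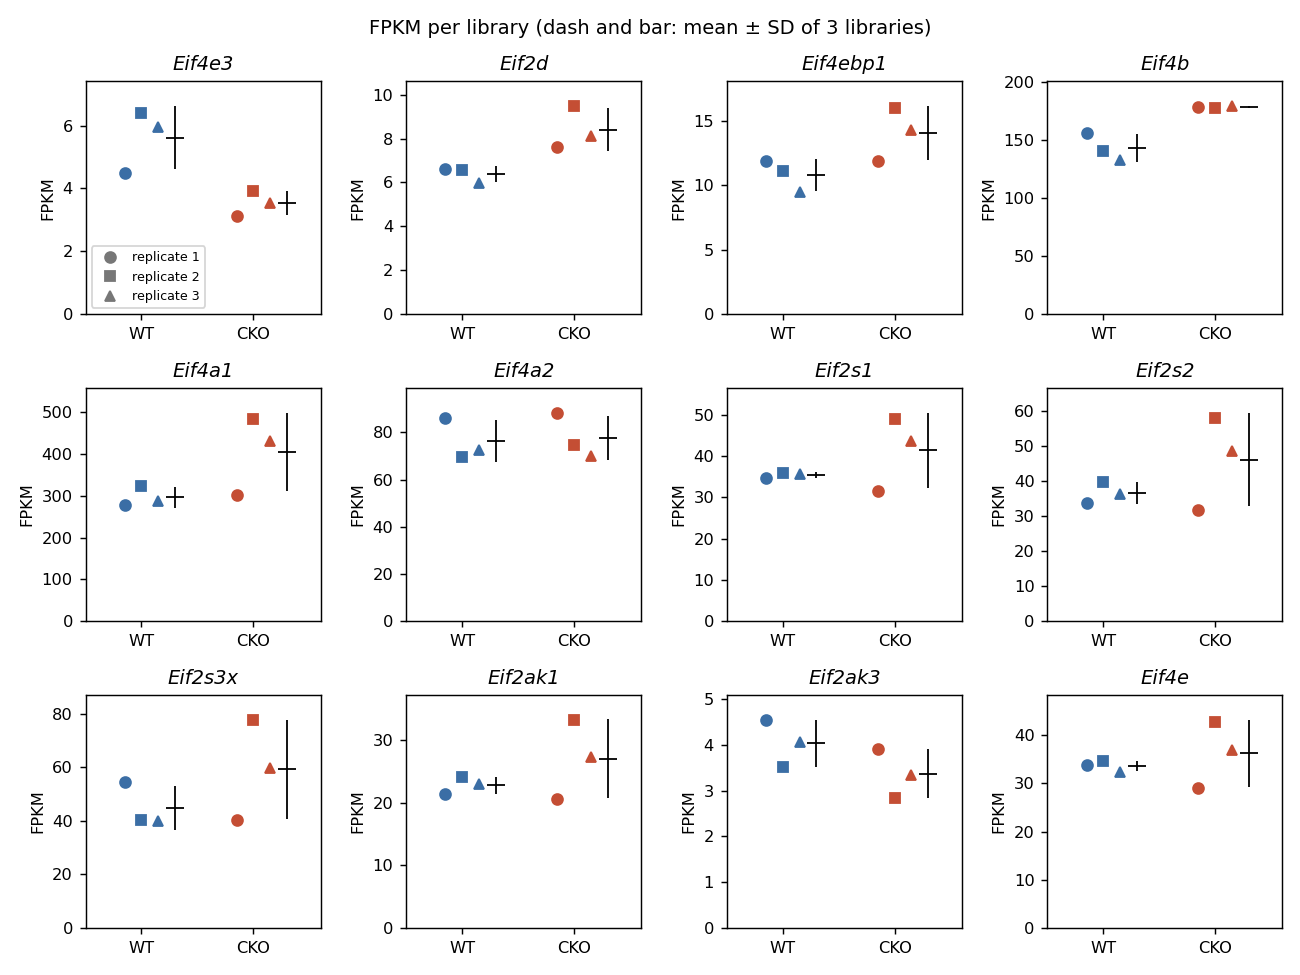
FPKM in each library for 12 eIF2 and eIF4 related genes (vertical axes start at 0), with the replicate number as marker shape and a dash and bar for the mean and SD of 3 libraries. *Eif4e3* is lower and *Eif2d* and *Eif4b* are higher in every CKO library, whereas CKO replicate 1 lies among or below the WT values for the eIF2 subunits and *Eif4e*.

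Among the eIF1, eIF1A, eIF5, eIF5A, eIF5B and eIF6 genes, none had an adjusted or unadjusted call with all 6 libraries and no block. Of the eIF1 and eIF1A genes, 4 of 5 were above 0 with a median log2 fold change of 0.05. *Eif1a* had 29.2, 27.5 and 29.3 in WT and 28.8, 46.6 and 38.5 in CKO (0.38, SE 0.18, adjusted *p* = 0.635). With the block its adjusted *p* value was 0.161 (unadjusted 0.0155), and with replicates 2 and 3 alone it was higher in CKO by 0.57 (adjusted *p* = 0.00261). Its paralog *Eif1ax* had 32.0, 40.6 and 37.9 in WT and 28.4, 52.2 and 45.4 in CKO. *Eif1*, which guards start codon choice, was at 111 to 129 in WT and 118 to 141 in CKO, its paralog *Eif1b* at 47.0 to 61.8 and 45.5 to 58.4, and *Eif1ad*, a related gene, at 30.5 to 36.9 and 29.5 to 37.1. Reads may be shared within the *Eif1* and *Eif1b*, and the *Eif1a* and *Eif1ax*, pairs. *Eif5* and *Eif5b* had log2 fold changes of 0.07 and 0.15. *Eif5a* had 351, 325 and 277 in WT and 341, 324 and 386 in CKO (0.14, SE 0.17), and its paralog *Eif5a2* 6.16, 5.83 and 6.14 and then 6.24, 8.03 and 7.25, a separation of groups with an unadjusted *p* value of 0.107. *Eif6*, which keeps the large subunit from joining too early, had 21.9, 25.5 and 20.7 in WT and 22.0, 24.9 and 26.9 in CKO.

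Other genes of the pathway, in lists set by function, had no adjusted call with or without the block. Of 51 listed genes, 50 were tested and 39 were above 0, with a median log2 fold change of 0.08. Their median was 0.05 with quantile normalization and -0.025 when rescaled without globin genes, against -0.10 for all tested genes in the latter. The eIF2 phosphorylation cycle and its readers had 10 of 13 above 0 and a median of 0.10, and *Trib3*, a target of ATF4 and CHOP, had 2.45, 2.52 and 2.72 in WT and 2.94, 5.26 and 3.87 in CKO (0.59, SE 0.21, unadjusted *p* = 0.0229, adjusted *p* = 0.516). All its CKO values were above WT, on 94 to 214 reads per library. Cap complex control genes had 12 of 19 above 0 and a median of 0.02, with *Rps6kb2*, an S6 kinase gene, at 10.7, 9.91 and 11.6 in WT and 9.63, 7.26 and 8.82 in CKO (-0.33, SE 0.14, unadjusted *p* = 0.0499, adjusted *p* = 0.600). Its CKO values were all below WT. The 6 scanning, reinitiation and recycling genes were all above 0 (median 0.19), as were the 10 elongation and release factors tested of 11 (median 0.23). Some were barely so, such as *Denr* at 0.004 and *Eef2k* at 0.003. The medians were 0.13 and 0.09 with quantile normalization, and 0.09 and 0.12 when rescaled without globin genes. Between the libraries numbered 1, 2 of 6 and 4 of 10 were higher in CKO. The 2 hypusine enzyme genes, which modify eIF5A, lay on either side of 0.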

How the data were processed

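RNA-seq of 3 WT and 3 CKO limb bud libraries was used, and the 28 other samples of the series were not analysed here. A stranded mRNA kit was used, and the authors deposited FPKM of protein-coding genes, 1 column per library. The submitters' processing notes name cutadapt 2.5, HISAT2 2.1.0 and featureCounts 1.6.3 without roles. Use of the strand in counting is not given in the sources used here, so antisense overlaps cannot be told apart. FPKM times GENCODE vM21 exon length gave whole reads, within 0.1, in all libraries for 92.7% of genes, and in CKO replicates 2 and 3 these exceeded the library size implied by the values, so the deposited FPKM carry a further scaling.

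Genes whose FPKM averaged at least 0.5 were compared by limma 3.58.1 (R 4.3.3, lmFit and eBayes with a trend) on log2(FPKM + 0.1), with Benjamini-Hochberg adjustment over all 12305 genes. With 3 libraries per group, an exact permutation test cannot go below *p* = 0.1. Groups share replicate numbers in the labels, and deviations from group means correlated at 0.64, 0.44 and 0.27 for numbers 1, 2 and 3, across genes, against -0.60 to 0.49 between different numbers. Number 1 alone stood apart. WT replicate 2 correlated more with CKO replicate 3 (0.49) than with CKO replicate 2. WT replicate 3 correlated more with CKO replicate 2 (0.31) than with CKO replicate 3. Pairing by number is thus not shown, and the sources do not say what a number stands for. The main fit used no block, and values by number or with the block rest on the labels alone.

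Alternatives were other pseudocounts (0.5 and 1) and filters, median-ratio and quantile scaling, rescaling without globin genes, no trend, the replicate block, replicates 2 and 3 alone, each library left out, and limma voom on recovered reads with and without the block. Genes named with values in all libraries were fixed members (eIF2 subunits, kinases, *Eif4e*, *Eif4g*, *Eif4a* and *Eif4ebp* genes, the most and least abundant eIF3 gene) and those with an unadjusted *p* value under 0.05 or a call with the block. Any other gene was named after its values were seen. The members, lists and alternatives were chosen with earlier results of these data known. *Gcn1* was matched through its older symbol. Promoters come from RefSeq (GRCm38.p6), and for 6 members with several starts the first listed was used.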

Additional observations from a re-analysis of the deposited data

How the results depend on the processing

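With the replicate number as a block, 0 initiation factor genes were higher and 1 was lower (*Eif4e3*) past the limma adjusted threshold, against 0 and 0 without it, and in this fit the block changed no other call among the members. Replicates 2 and 3 alone, 2 libraries per group, gave 13 higher (25.0%, against 7.05% of the tested genes) and 1 lower (1.92%, against 8.00%). Limma voom on recovered reads, which kept 44 members, gave 0 and 0, and 1 (*Eif2d*) and 1 with the block. Each library left out in turn gave 0 and 0. Shares over all genes are not given for the voom fits or for those with 1 library left out. The median over members was 0.057 with quantile normalization and 0.085 to 0.185 with 1 library left out. When rescaled without globin genes it was 0.034, and that of the eIF4 genes was -0.01, against -0.10 for all tested genes. That rescaling divides each library by 1 factor, so it shifts genes nearly alike. Under at least 1 alternative the sign turned for 22 of the 52 members, with log2 fold changes in the report of up to 0.24 in size (*Eif3e*), and for 30 under none. Of the genes named by rule, those that turned were *Eif2ak4* (-0.07 rescaled without globin genes, -0.01 with replicates 2 and 3 alone, -0.03 to 0.10 with 1 library left out), *Eif3h* (-0.07 with quantile normalization, -0.07 without globin genes, -0.03 to 0.15), *Eif4a2* (-0.06, -0.08, -0.07 to 0.12), *Eif4e* (-0.01 without globin genes, -0.03 to 0.24), *Eif4ebp2* (-0.01 without globin genes, -0.04 to 0.25) and *Eif4g3* (-0.34 to 0.05). The cause was not tested. Depth limits *Eif4e3* and *Eif3j2*, the members with under 200 reads in some library.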
